A study of Mus musculus with 12 samples.

Results

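Transcripts of skeletal muscle fibres and of myogenic cells were followed in RNA from macrophages of ischemic mouse calf muscle. The set holds 39 genes of the 55414 gene IDs in the count table. The genes were taken by symbol, as contractile and other fibre genes or as genes of myogenic cells, and all 39 matched an ID. They comprise 27 genes classed here as mature fibre genes, 4 contractile genes of developing or regenerating fibres, and 6 genes of muscle stem cells and their progeny. The others are Chrna1 and Ncam1, a receptor subunit and an adhesion molecule of myotubes and denervated fibres. Not all genes of the mature class are restricted to mature fibres, since myoblasts make Des and developing muscle makes Tnni1. All animals were C57BL6J wild type males, 8 to 12 weeks old, whose femoral artery had been ligated and excised. Per the design text of the series, an intravenous antibody labelled circulating CD45+ cells shortly before the muscle was taken for macrophages, and no uninjured muscle is among the samples. The groups are 1, 2, 4 and 7 dpi (days post injury), with 3 libraries each. The study describes the profiled population as CD45+CD11b+F4/80+CD64+ cells of the digested muscle, whereas the RNA protocol in the labels names digestion and red cell lysis but no sorting step. None of the 39 genes is a macrophage gene by its known role, and which cells made their RNA was not tested.

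Skeletal muscle repairs itself from satellite cells, the stem cells that lie beside each fibre and are marked by Pax7. After injury they enter the cycle and express Myf5 and Myod1, then Myog as they leave the cycle and differentiate, and Mymk as they fuse into myotubes. New myotubes first build sarcomeres from developmental isoforms such as the embryonic and perinatal myosins and cardiac actin, and replace these by adult isoforms as they mature. Macrophages clear fibre debris and signal to satellite cells in this period, so both fibre debris and myogenic cells lie close to them in the tissue.

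The start-site regions of 5 members are shown because they carry the 2 groups that the results turn on. Myog, Chrna1 and Actc1 were called higher from 2 to 4 dpi, and Acta1 and Ckm from 4 to 7 dpi. Each sequence is the 250 bases before the RefSeq start on GRCm38.p6, written 5′ to 3′ on the strand of the gene. The counts were made on GRCm39, so these positions are given for the sequence alone. Capitals mark E-boxes (CANNTG, the motif of MyoD family factors), CArG boxes (CCWWWWWWGG, the motif of serum response factor) and MEF2 boxes (YTAWWWWTAR), searched on both strands. Here W is A or T, Y is C or T and R is A or G. Only exact matches are marked. The stretch ctatatttat of the Myog window departs from the MEF2 pattern in its last base alone and is therefore not marked. The positions are chr1:134289754-134290003 (+ strand) for Myog, chr2:73580339-73580588 (- strand) for Chrna1, chr2:114052876-114053125 (- strand) for Actc1, chr8:123894776-123895025 (- strand) for Acta1 and chr7:19410844-19411093 (+ strand) for Ckm.
Myog: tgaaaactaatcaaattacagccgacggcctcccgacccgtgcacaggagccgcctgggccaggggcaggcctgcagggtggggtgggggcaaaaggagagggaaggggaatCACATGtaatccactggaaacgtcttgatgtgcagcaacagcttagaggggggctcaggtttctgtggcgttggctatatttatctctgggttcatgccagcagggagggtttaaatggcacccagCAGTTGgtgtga
Chrna1: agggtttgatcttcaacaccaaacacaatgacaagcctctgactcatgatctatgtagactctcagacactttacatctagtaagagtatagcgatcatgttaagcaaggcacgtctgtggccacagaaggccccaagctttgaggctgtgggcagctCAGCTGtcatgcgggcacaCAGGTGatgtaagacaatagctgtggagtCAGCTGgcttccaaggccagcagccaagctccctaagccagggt
Actc1: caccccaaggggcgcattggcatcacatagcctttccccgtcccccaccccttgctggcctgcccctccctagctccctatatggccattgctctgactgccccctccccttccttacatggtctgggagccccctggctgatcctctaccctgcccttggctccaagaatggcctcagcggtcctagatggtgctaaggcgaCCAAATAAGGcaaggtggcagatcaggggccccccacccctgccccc
Acta1: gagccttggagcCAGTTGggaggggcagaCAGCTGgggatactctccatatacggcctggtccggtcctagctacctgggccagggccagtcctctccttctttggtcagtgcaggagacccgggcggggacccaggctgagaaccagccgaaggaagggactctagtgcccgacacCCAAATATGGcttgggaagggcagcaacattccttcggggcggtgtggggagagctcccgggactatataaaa
Ckm: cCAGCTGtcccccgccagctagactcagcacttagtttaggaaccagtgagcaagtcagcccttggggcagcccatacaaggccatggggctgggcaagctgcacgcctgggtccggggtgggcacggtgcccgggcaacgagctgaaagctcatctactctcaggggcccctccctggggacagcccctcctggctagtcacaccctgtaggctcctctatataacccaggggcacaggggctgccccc

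Of the 39 members, 32 had such a window in the RefSeq table, among windows of 27025 genes. An E-box CANNTG lay in 25 of the 32 (78.1%) and in 66.2% of all genes. Its form CAGCTG, which is counted within CANNTG too, lay in 11 of the 32 (34.4%) and in 12.9% of all genes. CArG boxes were found for Acta1, Actc1, Myh4 and Myl3, which is 4 of the 32, against 1.39% of all genes. Exact matches to the MEF2 pattern were found for Myh1, Myh4, Myh8, Speg and Ttn, which is 5 of the 32, against 2.98% of all genes. These matches describe the letters of the windows and were not tested for binding.

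The members were rare in every library. Total counts per library ranged from 19528316 to 33599472. A single gene, without a symbol in the annotation used here, took 14.8% to 55.7% of them. Its share was smaller in each 7 dpi library than in any library of the other days. With that gene left out, 8992759 to 18581365 counts remained per library. Levels are given as CPM (counts scaled to the library total, after TMM scaling). All 39 members summed to 18.5 to 34.1 CPM in the 6 libraries of 1 and 2 dpi, to 38.9 to 57.5 CPM at 4 dpi and to 97.9 to 209 CPM at 7 dpi. A list of 8 macrophage genes (Ptprc, Itgam, Adgre1, Fcgr1, Csf1r, Cd68, Lyz2 and Mertk) summed to 5660 to 14800 CPM in the same libraries and had 70.3 to 432 times the counts of the members. The labelled cell type thus carried its markers in all 12 libraries. In bulk RNA, fewer cells of a type and less RNA per cell cannot be told apart, so a level of a fibre gene is the amount of its RNA in the library and no share of cells.

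In CPM the classes of members had their highest mean on different days. The 6 myogenic cell genes together had 0, 0 and 0.369 CPM in replicates 1 to 3 of 1 dpi, 0.451, 0 and 0.358 CPM at 2 dpi, 4.96, 4.35 and 6.94 CPM at 4 dpi, and 4.16, 3.33 and 3.96 CPM at 7 dpi. Thus all 3 libraries of 4 dpi and all 3 of 7 dpi lay above all 6 earlier ones. The order of 4 and 7 dpi depends on the scaling. The 7 dpi libraries lay below those of 4 dpi in CPM, with the largest drop in Cdh15 (mean 1.73 to 0.307 CPM). Myf5, Myod1 and Mymk also had lower means at 7 dpi, whereas Myog (1.52 to 2.08 CPM) and Pax7 (0.345 to 0.611 CPM) had higher ones. As a share of all counts the mean of the class was 0.000504% at 4 dpi and 0.000594% at 7 dpi. With the gene without a symbol left out the libraries of both days overlapped, at 0.000721% to 0.00123% for 4 dpi and 0.000641% to 0.000829% for 7 dpi. The 27 mature fibre genes together had 26.9 ± 6.78 CPM at 1 dpi (mean ± SD, n = 3), 20.3 ± 2.31 CPM at 2 dpi, 35.5 ± 8.1 CPM at 4 dpi and 137 ± 51 CPM at 7 dpi. The libraries of 1 and 4 dpi overlapped in this sum, and those of 7 dpi, at 85.9 to 188 CPM, lay above all others. Ryr1, which fell over the course, held a mean of 5.58 CPM of this sum at 1 dpi and 0.877 CPM at 7 dpi. For every count of a myogenic cell gene there were 5.75, 7.72 and 6.4 counts of mature fibre genes at 4 dpi and 45.2, 41.5 and 21.7 at 7 dpi. Myogenic cell genes thus took a larger part of the members' RNA at 4 dpi than at 7 dpi in every library.

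**Figure D1:**
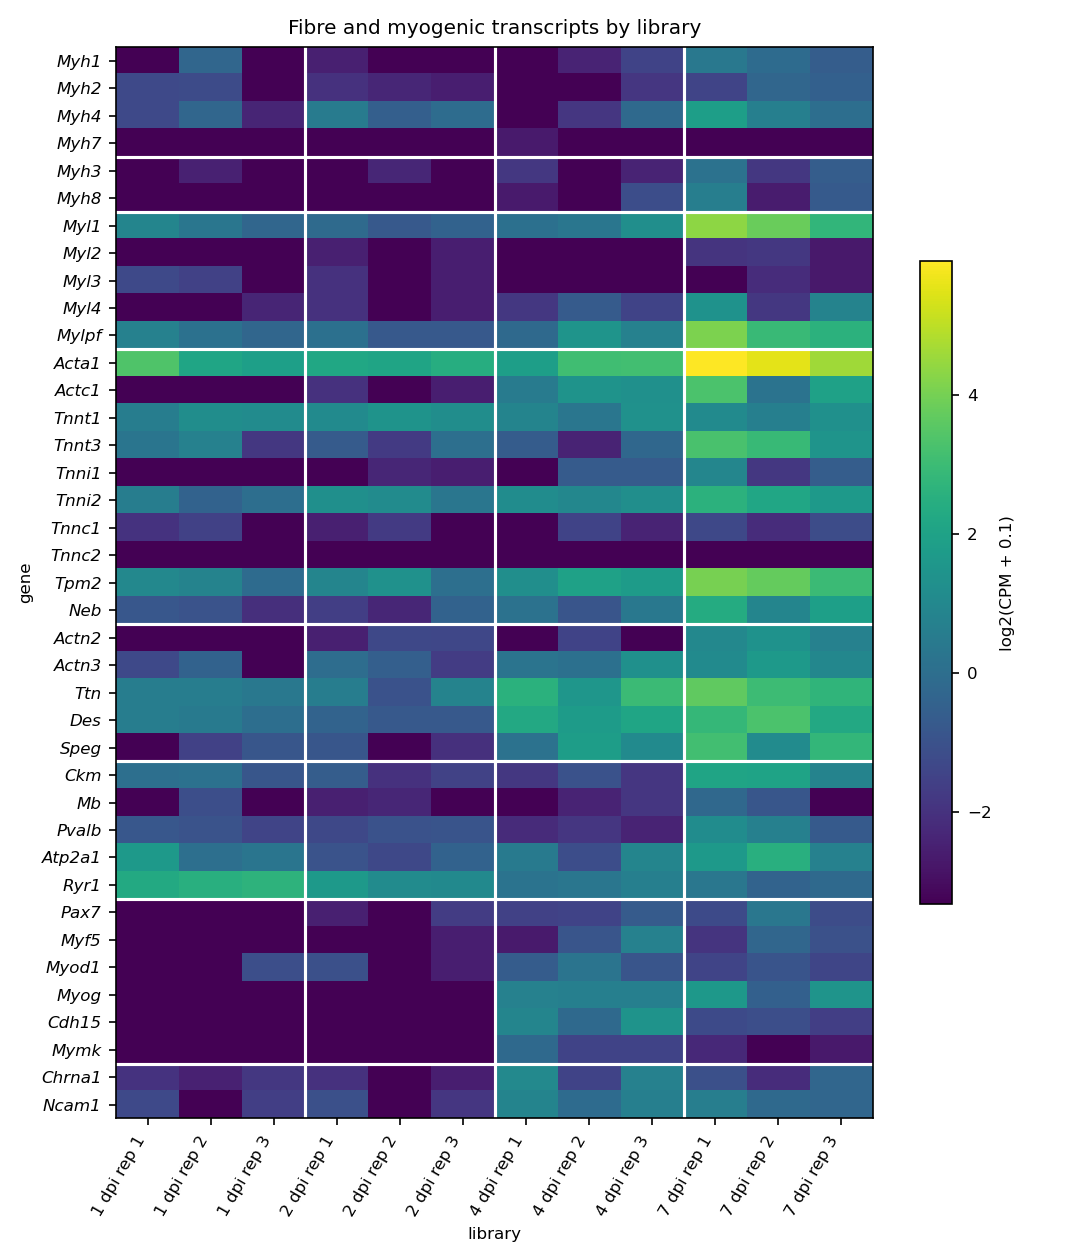
Level of the 39 members in the 12 libraries, as log2(CPM + 0.1), with libraries on the x-axis and genes on the y-axis in groups of like role (white lines separate days and groups). Myog, Cdh15 and Mymk are dark at 1 and 2 dpi and lighter at 4 dpi, Acta1, Myl1, Mylpf and Tpm2 are brightest at 7 dpi, and Ryr1 fades from 1 to 7 dpi.

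**Figure D2:**
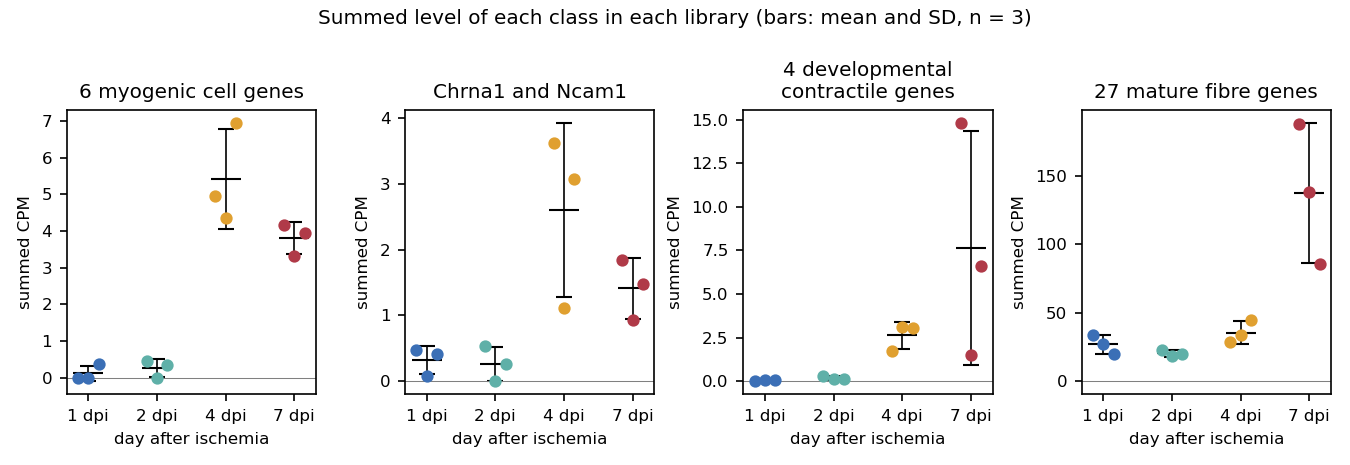
Summed CPM (y-axis) of each class by day (x-axis), with a point per library and bars for mean and SD (n = 3). In CPM the myogenic cell genes have their highest mean at 4 dpi (5.42), although as an unscaled share of counts it is at 7 dpi (0.000594%), and the mature fibre genes have theirs at 7 dpi on either scale (137 CPM).

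Successive days were compared with edgeR's quasi-likelihood test over 14310 genes, and 1 with 7 dpi as the whole course. A gene was called at a Benjamini-Hochberg FDR under 0.05 and an absolute log2FC above 1. Of the 39 members 30 passed the filter on low counts and were tested, and members that are low throughout had no chance of a call. The untested 9 are Myh7, Myh3, Myh8, Myl2, Myl3, Tnnc1, Tnnc2, Mb and Mymk, and their levels are given with their groups. Successive comparisons share libraries, so a high value at 4 dpi enters both 2 to 4 dpi and 4 to 7 dpi.

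From 1 to 2 dpi no member was called higher, against 5.09% of all genes tested, and 1 (Ryr1) was called lower, against 3.97%. At an unadjusted P under 0.05, 3 members were higher (Tnni2, Pax7 and Actn2) and 3 lower (Ryr1, Des and Atp2a1). limma-voom called 0 members higher. Actn2 was called higher by DESeq2, without the filter on low counts, and without 4 dpi replicate 1 or 2. From 2 to 4 dpi 9 members were called higher, against 8.02% of all genes: Myog, Cdh15, Myf5, Chrna1, Ncam1, Actc1, Ttn, Des and Speg. None was called lower, against 3.88% of all genes, also with DESeq2 or limma-voom, and 1 (Ryr1) was lower at an unadjusted P under 0.05. From 4 to 7 dpi 9 were called higher, against 7.44% of all genes: Acta1, Myl1, Mylpf, Tnnt3, Tpm2, Neb, Actn2, Ckm and Pvalb. Cdh15 was called lower, against 5.2% of all genes. From 1 to 7 dpi 22 members were called higher, against 19.7% of all genes, and Ryr1 was called lower, against 14%. The members were chosen with earlier results of these data known. A difference from the share of all genes is therefore a description and no independent test.

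The median log2FC of the 30 tested members was 0, 1.38 and 1.36 over the successive steps, and 2.80 for the whole course (2.77 with genes at 0 counts held at 3 counts over the group). Over all genes tested the medians were 0.01, 0.04, -0.03 and 0.16. The 5 tested myogenic cell genes had medians of 4.49 from 2 to 4 dpi and -0.67 from 4 to 7 dpi. Those of the 21 tested mature fibre genes were 0.87 and 2.00. Myog and Cdh15, at 0 counts at 1 and 2 dpi, passed the filter on low counts through 4 and 7 dpi alone. A high median into 4 dpi is thus partly set by the filter. The same holds for medians and calls into 7 dpi, since members such as Actn2 passed through 7 dpi alone. With the filter set on the 6 libraries compared, 14, 20, 30 and 25 members were tested over the successive steps and the whole course. The classes were not tested against each other.

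**Figure D3:**
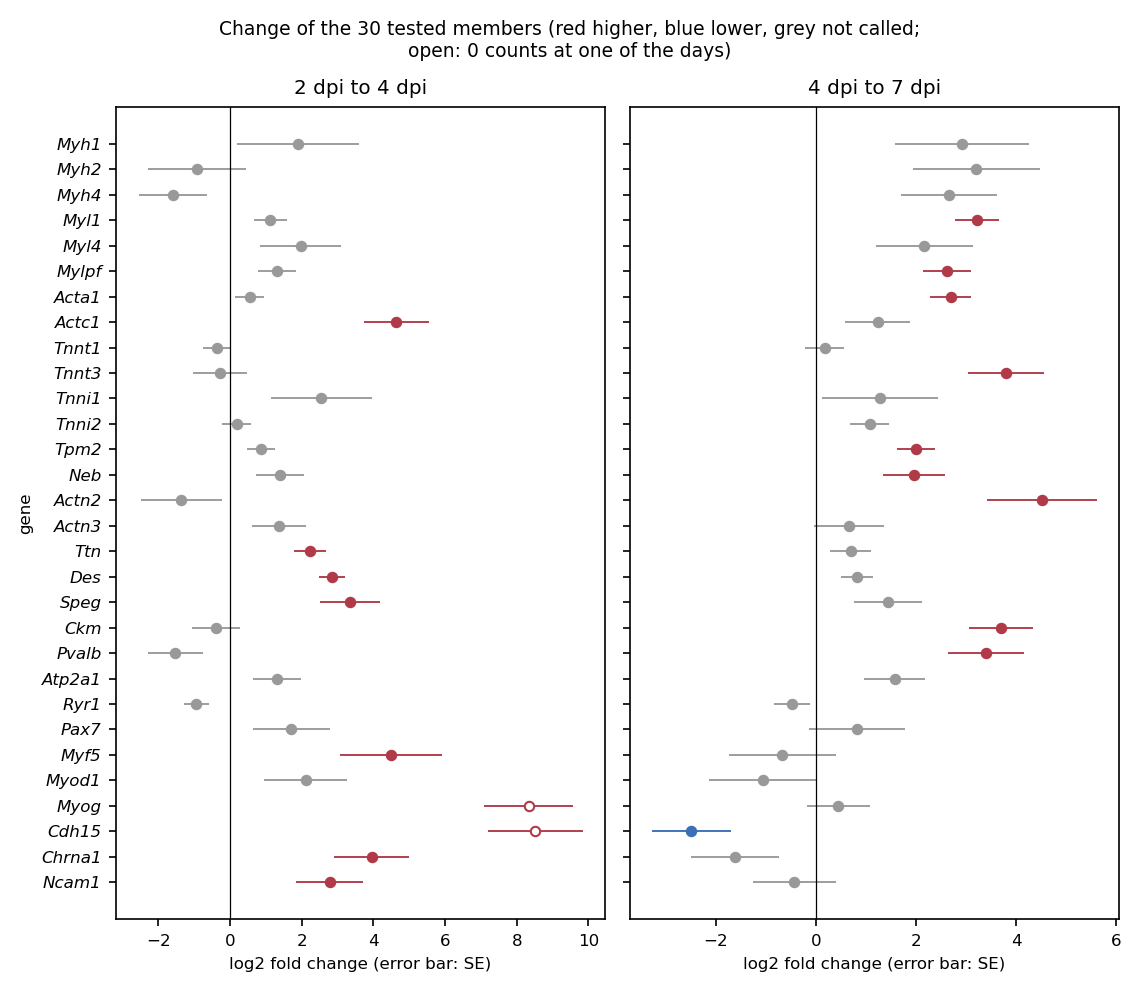
Fitted log2FC with its SE (x-axis) of the 30 tested members (y-axis) from 2 to 4 dpi (left) and from 4 to 7 dpi (right), in red where called higher, blue where called lower and grey where not called. Open points (Myog and Cdh15) had 0 counts at 2 dpi, where the fitted value depends on the prior count. The 9 genes in red on the left include Des (2.85) and Actc1 (4.64), the 9 on the right include Acta1 (2.70) and Myl1 (3.23), and Cdh15 is the 1 gene in blue (-2.48).

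Myog, the factor that drives differentiation of myoblasts, was the most uniform of the genes that appeared at 4 dpi. It had 0 counts in all 6 libraries of 1 and 2 dpi, where 3 counts would have been 0.108 to 0.236 CPM in a single library. At 4 dpi it had 1.57, 1.51 and 1.49 CPM in replicates 1 to 3, and at 7 dpi 2.97, 0.616 and 2.66 CPM. The 4 dpi libraries were nearly equal, and replicate 2 of 7 dpi lay below them while the other replicates lay above. Against a floor of 3 counts over the 2 dpi group, Myog was at least 38.1-fold higher at 4 dpi (FDR 0.000662). Its change from 4 to 7 dpi was not called (log2FC 0.45, SE 0.63, FDR 0.631).

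Cdh15, which encodes the M-cadherin of satellite cells and myoblasts, appeared at 4 dpi and then fell. It had 0 counts in all 6 libraries of 1 and 2 dpi, 1.75, 0.799 and 2.63 CPM at 4 dpi, and 0.324, 0.37 and 0.226 CPM at 7 dpi. The 4 dpi libraries lay above all others, and those of 7 dpi lay between. Cdh15 was at least 43.2-fold higher at 4 than at 2 dpi (FDR 0.00085) and was downregulated from 4 to 7 dpi (log2FC -2.48, SE 0.78, FDR 0.0352). Leaving out 4 dpi replicate 1 or 3 or any 7 dpi replicate ended the second call, with an FDR of up to 0.156, as did a block for the replicate number, and the log2FC stayed between -2.84 and -2.07 over all alternatives.

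Mymk encodes myomaker, the membrane protein that myoblasts need for fusion. It was not tested, with 44 counts over the 12 libraries. It had 0 counts in the 6 libraries of 1 and 2 dpi, 0.786, 0.266 and 0.263 CPM at 4 dpi, and 0.108, 0 and 0.0565 CPM at 7 dpi. All 3 libraries of 4 dpi lay above all others, and the level at 4 dpi was at least 12.1-fold higher than at 2 dpi by the same floor. Without the filter on low counts Mymk was called (FDR 0.0268). The order of days is that of Cdh15, with 6 counts left over the 7 dpi group.

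The earlier factors of the lineage had means of 0.345 to 0.695 CPM at 4 dpi, under Myog and Cdh15. Pax7, the satellite cell factor, had 0 counts in the 3 libraries of 1 dpi, 0.0751, 0 and 0.215 CPM at 2 dpi, 0.242, 0.266 and 0.527 CPM at 4 dpi and 0.324, 1.17 and 0.339 CPM at 7 dpi. Its libraries of 4 and 7 dpi lay above those of 2 dpi, with replicate 2 of 7 dpi highest. No successive step of Pax7 was called (FDR 0.155, 0.292 and 0.55 in order), and from 1 to 7 dpi it was at least 11.6-fold higher (FDR 0.00395).

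Myf5, a factor of activated satellite cells and myoblasts, had 0.0717 CPM in replicate 3 of 2 dpi and 0 counts in the other 5 libraries of 1 and 2 dpi. It had 0.0605, 0.444 and 1.58 CPM at 4 dpi and 0.162, 0.739 and 0.396 CPM at 7 dpi. The 4 dpi libraries spread widely, and replicate 1 was within the 2 dpi range. Myf5 was called higher at 4 than at 2 dpi (log2FC 4.49, SE 1.43, FDR 0.0397), where the count ratio was 22.9 with a 95% counting interval of 5.99 to 194. The call ended with limma-voom and without any 2 dpi replicate, 4 dpi replicate 2 or 3, or 7 dpi replicate 3 (FDR up to 0.245).

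Myod1, which commits cells to the muscle lineage, was the one myogenic cell gene with counts at 1 dpi, all in replicate 3 (0.369 CPM). It had 0.376, 0 and 0.0717 CPM at 2 dpi, 0.544, 1.07 and 0.439 CPM at 4 dpi and 0.27, 0.431 and 0.283 CPM at 7 dpi. The 4 dpi libraries lay above all others, by a narrow margin over replicate 2 of 7 dpi. None of its comparisons was called, with log2FC 2.11 (SE 1.16, FDR 0.219) from 2 to 4 dpi and -1.05 (SE 1.08, FDR 0.492) from 4 to 7 dpi. Without 1 dpi replicate 3 it was called higher from 1 to 7 dpi (FDR 0.0344).

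Chrna1 encodes the alpha subunit of the muscle acetylcholine receptor, which myotubes and denervated fibres make along their length. It had 0.157, 0.0821 and 0.185 CPM at 1 dpi, 0.15, 0 and 0.0717 CPM at 2 dpi, 1.94, 0.266 and 1.58 CPM at 4 dpi and 0.378, 0.123 and 0.735 CPM at 7 dpi. Replicates 1 and 3 of 4 dpi stood far above the rest, and replicate 2 of 4 dpi lay within the range of 7 dpi. It was upregulated from 2 to 4 dpi (log2FC 3.95, SE 1.04, FDR 0.0141), and leaving out 2 dpi replicate 2 or 3 or 4 dpi replicate 3 ended the call (FDR up to 0.0606). Its later decrease was not called (log2FC -1.61, SE 0.88, FDR 0.185).

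Ncam1, a neural cell adhesion molecule also found on myotubes and denervated fibres, had 0.314, 0 and 0.231 CPM at 1 dpi, 0.376, 0 and 0.179 CPM at 2 dpi, 1.69, 0.843 and 1.49 CPM at 4 dpi and 1.46, 0.801 and 0.735 CPM at 7 dpi. The libraries of 4 and 7 dpi overlapped each other and lay above all earlier ones. It was upregulated from 2 to 4 dpi (log2FC 2.78, SE 0.93, FDR 0.0459), close to the threshold, and 7 of the single libraries left out ended this call (FDR up to 0.127). Those were 2 dpi replicates 2 and 3, all 4 dpi replicates, and 7 dpi replicates 1 and 3. The call from 1 to 7 dpi (log2FC 2.55, FDR 0.0406) ended when 1 dpi replicate 2 or 3, 4 dpi replicate 1 or 3, or 7 dpi replicate 1 was left out (FDR up to 0.12).

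Actc1, the cardiac actin that regenerating skeletal fibres also make, rose with the myogenic cell genes. It had 0 counts at 1 dpi, 0.15, 0 and 0.0717 CPM at 2 dpi, 1.33, 2.57 and 2.37 CPM at 4 dpi and 9.82, 1.05 and 3.84 CPM at 7 dpi. All 4 dpi libraries lay above all earlier ones, and the 7 dpi libraries spread to both sides of them. The change from 2 to 4 dpi was called (log2FC 4.64, SE 0.90, FDR 0.0026), although not with limma-voom. From 4 to 7 dpi it was not called with all libraries (log2FC 1.24, SE 0.65, FDR 0.175) and was called without 7 dpi replicate 2 (log2FC 1.73, FDR 0.0478).

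The other developmental genes were lower. Myl4, the embryonic and atrial myosin light chain, had at most 0.15 CPM at 1 and 2 dpi, 0.181, 0.533 and 0.263 CPM at 4 dpi and 2.54, 0.185 and 1.67 CPM at 7 dpi. Replicate 2 of 7 dpi lay within the 4 dpi range and the other replicates far above it. Myl4 was called from 1 to 7 dpi (log2FC 5.26, SE 1.28, FDR 0.00297), where its count ratio was 44.5 (95% counting interval 12.1 to 371). Myh3, the embryonic myosin heavy chain, had 8 counts at 4 dpi and 64 at 7 dpi, with 1.03, 0.185 and 0.565 CPM in replicates 1 to 3 of 7 dpi. Replicate 2 of 7 dpi had 6 counts, as many as replicate 1 of 4 dpi. Myh8, the perinatal myosin heavy chain, had 0 counts at 1 and 2 dpi, 10 at 4 dpi and 74 at 7 dpi, which were 1.46, 0.0616 and 0.509 CPM in replicates 1 to 3. Both heavy chains were untested, and both were called higher from 1 to 7 dpi once the filter was dropped (FDR 0.0352 for Myh3 and 0.00162 for Myh8).

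Acta1, skeletal alpha-actin of the thin filament, had the highest level of all members at 7 dpi. It had 10.4, 4.19 and 3.6 CPM at 1 dpi, 4.43, 4.08 and 5.3 CPM at 2 dpi, 3.51, 8.35 and 8.6 CPM at 4 dpi and 60.9, 46.7 and 24.4 CPM at 7 dpi. The first 3 days overlapped, with replicate 1 of 1 dpi the highest of them, and every 7 dpi library lay above all others. It was upregulated from 4 to 7 dpi (log2FC 2.70, SE 0.41, FDR 0.000688). Acta1 alone gave 12.3% to 33.8% of the counts of the mature fibre genes in a library, and 28.4% to 33.8% at 7 dpi. Acta1 and Actc1 encode near-identical proteins, and the split of reads between them was not tested. At 1 dpi Acta1 had 312 counts and Actc1 0, and at 2 dpi 348 and 6.

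Tpm2, beta-tropomyosin, had 1.45 ± 0.552 CPM at 1 dpi (SD, n = 3), 1.72 ± 0.779 CPM at 2 dpi, 3.12 ± 0.767 CPM at 4 dpi and 12.4 ± 4.33 CPM at 7 dpi. Its 7 dpi libraries, at 7.74 to 16.3 CPM, lay above all others, and it was called from 4 to 7 dpi (log2FC 2.00, SE 0.38, FDR 0.00217). Tnnt3, the fast troponin T, had 0.544, 0.0888 and 0.746 CPM at 4 dpi and 9.5, 7.46 and 2.66 CPM at 7 dpi (log2FC 3.80, SE 0.75, FDR 0.00257). Its 4 dpi values overlapped those of the start, with 1.1, 1.56 and 0.185 CPM at 1 dpi. Neb, nebulin of the thin filament, had 1.03, 0.444 and 1.19 CPM at 4 dpi and 5.02, 1.76 and 3.67 CPM at 7 dpi. It was called (log2FC 1.97, SE 0.62, FDR 0.0296), and leaving out any 4 dpi replicate or 7 dpi replicate 1 or 3 ended the call (FDR up to 0.126).

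Both light chains of fast fibres rose late as well. Myl1, the fast alkali light chain, had 0.498 to 1.73 CPM over the 6 libraries of 1 and 2 dpi, 0.968, 1.15 and 2.28 CPM at 4 dpi and 20.2, 14 and 6.73 CPM at 7 dpi. Every 7 dpi library lay above all others (log2FC from 4 dpi 3.23, SE 0.44, FDR 0.000382). Mylpf, the fast regulatory light chain, had 0.786, 2.66 and 1.58 CPM at 4 dpi and 16.9, 7.7 and 6.05 CPM at 7 dpi, again without overlap (log2FC 2.62, SE 0.48, FDR 0.00182). The slow light chains Myl2 and Myl3 stayed at or under 0.314 CPM in all 12 libraries and were not tested.

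Per kilobase of exon, which allows levels of different genes to be compared, the order at 7 dpi was Acta1 (28.6 CPM per kb), Mylpf (9.64), Myl1 (6.59), Tpm2 (4.27), Tnnt3 (4.13), Actc1 (3.03) and Tnni2 (2.99). In each 7 dpi library Acta1 was above Mylpf, Mylpf above Myl1 and Myl1 above Tpm2. The order of Tpm2, Tnnt3, Actc1 and Tnni2 changed between libraries. After Acta1, the means of neighbours differed by less than the SD between libraries of the higher one. Among the myogenic cell genes Myog was highest at both 4 dpi (1.02 CPM per kb) and 7 dpi (1.39). Cdh15, at 0.532, was next at 4 dpi. Lengths were those of a GRCm38 annotation.

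Of the 5 Z-disc and cytoskeletal genes, 3 were called higher from 2 to 4 dpi and 1 from 4 to 7 dpi, against 8.02% and 7.44% of all genes. Des, desmin, which myoblasts already make before sarcomeres form, had 1.41, 1.31 and 0.923 CPM at 1 dpi, 0.676, 0.498 and 0.502 CPM at 2 dpi, 4.72, 3.29 and 4.21 CPM at 4 dpi and 7.13, 9.86 and 4.64 CPM at 7 dpi. All its 4 dpi libraries lay above all earlier ones, and it was upregulated from 2 to 4 dpi (log2FC 2.85, SE 0.37, FDR 8.07e-05), the smallest FDR of any member in that comparison. From 4 to 7 dpi Des was not called (log2FC 0.82, SE 0.32, FDR 0.0711), except without 7 dpi replicate 3 (log2FC 1.06, FDR 0.0228). Its call at 4 dpi held under every alternative, with log2FC 2.73 to 3.03.

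Ttn, titin, the spring of the sarcomere, had 1.43, 0.398 and 1.65 CPM at 2 dpi, 5.96, 2.84 and 7.81 CPM at 4 dpi and 12.6, 7.92 and 6.56 CPM at 7 dpi. The 4 dpi libraries lay above the earlier ones and overlapped those of 7 dpi. It was upregulated from 2 to 4 dpi (log2FC 2.23, SE 0.45, FDR 0.00253) and not called from 4 to 7 dpi (log2FC 0.70, FDR 0.213). Speg, a kinase of the triad and sarcomere, had 0.451, 0 and 0.143 CPM at 2 dpi, 1.03, 3.46 and 2.06 CPM at 4 dpi and 8.61, 2.09 and 6.9 CPM at 7 dpi. It too was called from 2 to 4 dpi (log2FC 3.35, SE 0.83, FDR 0.00931), except with limma-voom. Ttn and Speg are long transcripts, which give more reads at the same abundance.

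The alpha-actinins of the Z-disc were not called from 2 to 4 dpi. Actn2 had 0 counts at 1 dpi, 0.0751, 0.299 and 0.287 CPM at 2 dpi, 0.266 CPM in replicate 2 and 0 counts in the other replicates of 4 dpi, and 1.89, 2.5 and 1.58 CPM at 7 dpi. Every 7 dpi library lay above all others, and the call from 4 to 7 dpi (log2FC 4.52, SE 1.09, FDR 0.0096) held under every alternative. Without 4 dpi replicate 2, whose 6 counts are all that 4 dpi had, Actn2 was called lower from 2 to 4 dpi (FDR 0.0447), whereas with all libraries it was not (log2FC -1.36, FDR 0.434). Actn3, the fast alpha-actinin, had 0.314, 0.657 and 0 CPM at 1 dpi, 0.901, 0.597 and 0.215 CPM at 2 dpi, 1.09, 0.977 and 2.37 CPM at 4 dpi and 2.05, 3.14 and 1.87 CPM at 7 dpi. No successive step of Actn3 was called, and the whole course was (log2FC 2.82, SE 0.80, FDR 0.00809).

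The adult myosin heavy chains were low for genes of their length and none was called. Myh4, the chain of the fastest fibres, had 0.314, 0.739 and 0.0923 CPM at 1 dpi, 1.35, 0.597 and 0.86 CPM at 2 dpi, 0, 0.178 and 0.79 CPM at 4 dpi and 3.56, 1.48 and 0.904 CPM at 7 dpi. Its 7 dpi libraries lay above those of 4 dpi but not above all of 2 dpi, and the change from 4 dpi missed the threshold (log2FC 2.66, SE 0.96, FDR 0.052). DESeq2, limma-voom, both other filters and 4 of the single libraries left out called it (FDR 0.00304 to 0.049). From 1 to 7 dpi it missed the threshold too (log2FC 2.33, FDR 0.0534) and was called under 10 alternatives (FDR 0.00547 to 0.0473).

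Myh1 and Myh2, the chains of other fast fibres, had 8 and 4 counts at 4 dpi and 92 and 56 at 7 dpi. Myh1 had 0, 0.0888 and 0.263 CPM at 4 dpi and 1.21, 0.832 and 0.565 CPM at 7 dpi (log2FC 2.92, SE 1.33, FDR 0.113). Myh2 had 0, 0 and 0.176 CPM at 4 dpi and 0.27, 0.739 and 0.622 CPM at 7 dpi (log2FC 3.21, SE 1.27, FDR 0.0712). Neither overlapped between those days, and limma-voom called both (FDR 0.0246 and 0.0325). All 18 counts of Myh1 at 1 dpi came from replicate 2, and without it Myh1 was called from 1 to 7 dpi (FDR 0.0161). Myh7, the slow chain, had 2 counts over all 12 libraries, both in replicate 1 of 4 dpi. Myosin heavy chain genes share long stretches of near-identical sequence, so reads may be assigned to the wrong member of the family.

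Ckm and Pvalb rose at 7 dpi from their lowest mean, at 4 dpi. Ckm, muscle creatine kinase, had 0.943, 0.985 and 0.461 CPM at 1 dpi, 0.563, 0.149 and 0.251 CPM at 2 dpi, 0.181, 0.4 and 0.176 CPM at 4 dpi and 4.13, 4.04 and 1.67 CPM at 7 dpi. Its 1 dpi libraries lay above those of 4 dpi, and its 7 dpi libraries above all others (from 4 dpi log2FC 3.70, SE 0.64, FDR 0.00137). Pvalb, parvalbumin, the calcium buffer of fast fibres, had 0.121, 0.178 and 0.0878 CPM at 4 dpi and 2.16, 1.54 and 0.509 CPM at 7 dpi. It was called from 4 to 7 dpi (log2FC 3.40, SE 0.76, FDR 0.00536) and, with a call that 9 alternatives ended, from 1 to 7 dpi (log2FC 1.86, SE 0.70, FDR 0.0363, up to 0.173 with a library left out). Those were no filter, limma-voom, the fit of the 6 libraries, the block, and leaving out any 1 dpi replicate or 7 dpi replicate 1 or 2. Mb, myoglobin, had 44 counts at 7 dpi, in replicates 1 (0.783 CPM) and 2 (0.462 CPM) and none in replicate 3.

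Atp2a1, the calcium pump SERCA1 of fast fibres, was high early and late. It had 3.14, 0.944 and 1.11 CPM at 1 dpi, 0.413, 0.299 and 0.645 CPM at 2 dpi, 1.3, 0.355 and 1.76 CPM at 4 dpi and 3.13, 5.55 and 1.58 CPM at 7 dpi. The 2 dpi libraries lay below those of 1 dpi, and replicate 1 of 1 dpi matched the 7 dpi range. None of its changes was called (from 1 to 2 dpi log2FC -1.87, SE 0.67, FDR 0.0784). The drop to 2 dpi was called by DESeq2, without the filter and in the fit of the 6 libraries (FDR 0.0171 to 0.0451), and without 1 dpi replicate 1 Atp2a1 was called higher at 7 than at 1 dpi (log2FC 1.79 in place of 1.02, FDR 0.0402). From 4 to 7 dpi (log2FC 1.58, FDR 0.0675) it was called by DESeq2, without the filter, and without 1 dpi replicate 1 or 7 dpi replicate 3 (FDR 0.0247 to 0.0487). Exons of Rabep2 cover 21.9% of its exonic bases on the opposite strand, and the library protocol keeps no strand.

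Ryr1, the calcium release channel of the sarcoplasmic reticulum, was the only member called lower from 1 to 7 dpi. It had 4.87, 5.58 and 6.28 CPM at 1 dpi, 3, 2.09 and 2.01 CPM at 2 dpi, 1.06, 1.15 and 1.49 CPM at 4 dpi and 1.16, 0.678 and 0.791 CPM at 7 dpi. Each of the first 3 days lay below the one before without overlap, and 4 and 7 dpi overlapped. It was downregulated from 1 to 7 dpi (log2FC -2.66, SE 0.36, FDR 2.17e-05) under every alternative. The step from 1 to 2 dpi was called too (log2FC -1.24, SE 0.34, FDR 0.0245), but not without the filter or without 1 dpi replicate 2 or 3 or 2 dpi replicate 2 or 3 (FDR up to 0.124).

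The slow fibre genes gave little signal. Tnnt1, the slow troponin T, had 1.92 ± 0.438 CPM at 1 dpi (SD, n = 3), 2.28 ± 0.284 CPM at 2 dpi, 1.77 ± 0.655 CPM at 4 dpi and 2.00 ± 0.463 CPM at 7 dpi, and overlapped between all days (from 1 to 7 dpi log2FC 0.05, SE 0.39, FDR 0.932). It was the one slow gene with counts in every library. Tnni1, the slow troponin I that developing muscle also makes, had 0 counts at 1 dpi, 0, 0.533 and 0.527 CPM at 4 dpi and 1.78, 0.185 and 0.565 CPM at 7 dpi. From 1 to 7 dpi it was at least 17.2-fold higher (FDR 0.00806). Tnnc1, troponin C of slow and cardiac muscle, stayed between 0 and 0.339 CPM.

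Of the 11 genes of fast fibres, 10 were tested. From 4 to 7 dpi 4 of them were called higher (Myl1, Mylpf, Tnnt3 and Pvalb), against 7.44% of all genes. The summed level of the 11 was 6.99, 7.55 and 12.3 CPM at 4 dpi and 65.1, 46.8 and 24.5 CPM at 7 dpi. The 6 slow genes, of which 2 were tested and none called in that comparison, summed to 1.75, 1.95 and 3.07 CPM at 4 dpi and 4.29, 2.13 and 3.45 CPM at 7 dpi. With 2 slow genes tested, the lack of a call cannot be told apart from the share of all genes. The fast sums did not overlap between the days and the slow sums did, and the difference between the fast and slow lists was not tested. Tnni2, the fast troponin I, had 2.11 ± 0.218 CPM at 4 dpi and 4.47 ± 1.53 CPM at 7 dpi (SD, n = 3), and just missed the FDR threshold (log2FC 1.08, SE 0.39, FDR 0.0513). It was called under 9 alternatives, DESeq2 and limma-voom among them (FDR 0.0181 and 0.0366). Tnnc2, the fast troponin C, had 0 counts in all 12 libraries, and in the GRCm38 annotation 74.0% of its exonic bases overlap Ube2c on the opposite strand.

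Among the 7 dpi libraries, replicate 2 had its own order of classes. Of the members with at least 20 counts at 7 dpi, all 4 developmental genes were lowest in replicate 2, and so were Myog and Chrna1. Of the 23 mature fibre genes replicate 2 was lowest for 6, in the middle for 12 and highest for 5. In the same library 4 of the 5 myogenic cell genes (Pax7, Myf5, Myod1 and Cdh15) were highest, by few counts for Myod1 (10, 14 and 10) and in a tie of counts for Cdh15 (12, 12 and 8). The developmental sum was 14.8, 1.48 and 6.59 CPM in replicates 1 to 3, whereas the mature sum was 188, 138 and 85.9 CPM with replicate 2 in the middle. Endothelial markers were highest in replicate 2 (62.6, 141 and 84.1 CPM) and fibroblast markers lowest (891, 466 and 562 CPM), and their part in the result was not tested. Without replicate 2, 10 members were called higher from 4 to 7 dpi in place of 9, and none was called lower. With 3 libraries this difference between replicates has no test.

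**Figure D4:**
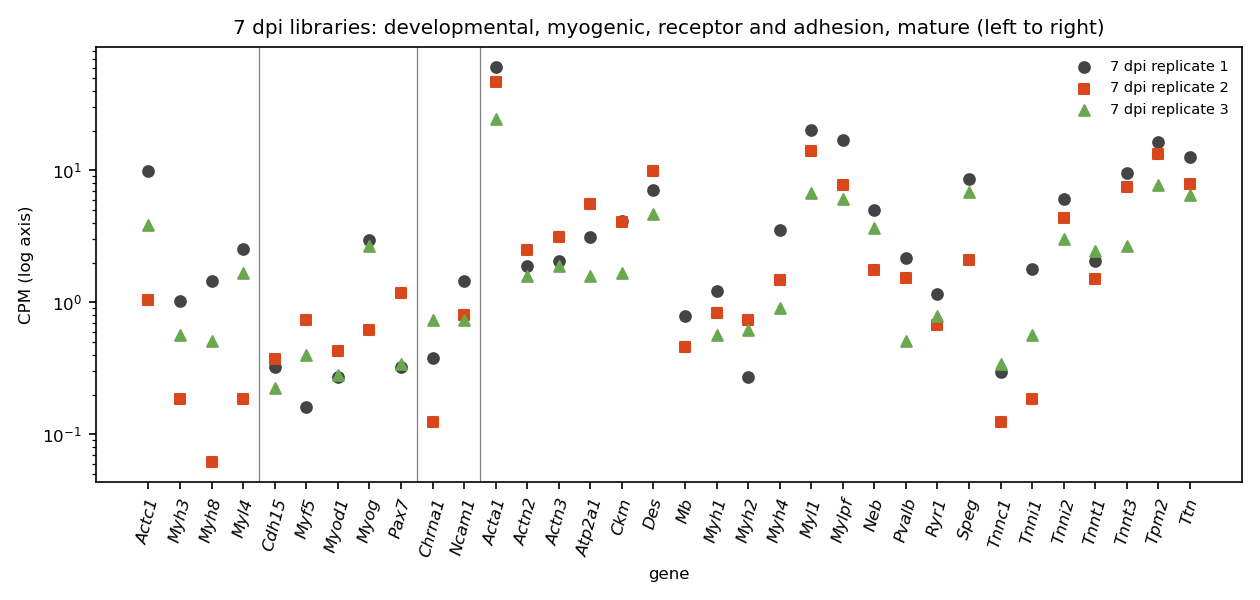
CPM on a log axis (y-axis) of the members with at least 20 counts at 7 dpi (x-axis) in the 3 libraries of 7 dpi, in order developmental, myogenic, receptor and adhesion, and mature genes. A value of 0 (Mb in replicate 3) is not drawn. Squares (replicate 2) lie lowest for the 4 developmental genes and highest for Pax7 (1.17 CPM).

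Further fibre genes were read from a list of 63 that are not members. Of these 32 were tested, of which 2, 4, 4 and 17 were called higher from 1 to 2, 2 to 4, 4 to 7 and 1 to 7 dpi, against 5.09%, 8.02%, 7.44% and 19.7% of all genes. From 1 to 7 dpi 1 was called lower (Cox7a1, a respiratory chain subunit). Their median log2FC was 0.43, 0.41, 0.76 and 2.09 in these comparisons. The pair called from 1 to 2 dpi, a share near that of all genes, was Cox6a2, a respiratory chain subunit of muscle, and Trdn, triadin of the triad (FDR 0.0236 and 0.0299). Myom1, myomesin of the M-band, rose with Ttn at 4 dpi, from 0.15, 0.199 and 0.143 CPM at 2 dpi to 1.51, 8.12 and 4.57 CPM (log2FC 4.82, SE 0.65, FDR 0.000104). Fbxo32, an E3 ligase subunit of muscle atrophy that other cells express too, Synpo2l and Pgam2, the muscle phosphoglycerate mutase, were the others called at that step. From 4 to 7 dpi the genes were Xirp2, Myot, Tcap and Pygm. Xirp2, a Z-disc and actin-binding protein, had 0 counts at 4 dpi and 1.46, 2.03 and 0.622 CPM at 7 dpi, at least 35.4-fold higher (FDR 0.00282).

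Of 33 other myogenic and synaptic genes 18 were tested, with 1, 5, 0 and 9 called higher in the same comparisons, against the same shares of all genes, none lower, and medians of 0, 2.22, 0.44 and 2.37 (2.15 and 2.25 for the second and the last with genes at 0 held at the floor). Rapsn was the 1 called from 1 to 2 dpi (FDR 0.0225), which is near the share of all genes. The 5 called from 2 to 4 dpi were Rapsn, Itga7, Six4, Msc and Vgll2. Rapsn, which clusters the acetylcholine receptor at the synapse, had 0.526, 0.398 and 0.251 CPM at 2 dpi and 2.36, 5.33 and 3.42 CPM at 4 dpi (log2FC 3.23, SE 0.56, FDR 0.000879). It stayed at 4.53, 1.85 and 4.64 CPM at 7 dpi. Itga7, the laminin receptor of myogenic cells, had 0.0751, 0.0996 and 0.215 CPM at 2 dpi and 2.18, 0.666 and 2.28 CPM at 4 dpi (log2FC 3.65, SE 0.72, FDR 0.00212). Vgll2 falls outside the rule for named genes and was added after its value was seen. Six4, Msc and Vgll2 had 0 counts at 2 dpi and 14 to 32 counts over the 4 dpi group, at least 10.2-, 4.44- and 5.08-fold higher (FDR 0.0151, 0.0334 and 0.0401).

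Of the markers of other cells, the fibroblast and tendon lists rose at both later steps, as the members did. Endothelial and pericyte lists had median log2FC of -0.39 and -0.35 from 2 to 4 dpi, and of 1.12 and 0.84 from 4 to 7 dpi. The 12 fibroblast and fibro-adipogenic markers summed to 25.4 to 65.1 CPM at 1 and 2 dpi, 146 to 279 CPM at 4 dpi and 466 to 891 CPM at 7 dpi. Of these 12, 7 were called higher from 2 to 4 dpi and 9 from 4 to 7 dpi, with none lower. Of all genes 8.02% and 7.44% were called higher in these comparisons. Tendon cell markers summed to 2.51 to 10 CPM at 1 and 2 dpi, 8.17 to 12.4 CPM at 4 dpi and 41.8 to 53.2 CPM at 7 dpi (1 and 3 of 4 tested called higher in those comparisons). The 12 endothelial markers summed to 37.3 to 68.3 CPM up to 4 dpi and to 62.6 to 141 CPM at 7 dpi, with none called from 2 to 4 dpi and 4 from 4 to 7 dpi. Pericyte and smooth muscle markers summed to 24.9 to 66 CPM up to 4 dpi and to 62.1 to 112 CPM at 7 dpi. Their part in the results on fibre genes was not tested.

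From 2 to 4 dpi 8.02% of all genes were called higher. None of the 12 endothelial, 9 pericyte and smooth muscle and 6 Schwann cell markers tested was, and 1 of 2 cardiac markers tested was. Lists this short cannot be told apart from the share of all genes. That marker was Tnnt2, cardiac troponin T, which regenerating skeletal muscle also makes, with 0 counts at 2 dpi and 0.121, 0.533 and 0.966 CPM at 4 dpi. The 8 cardiac markers summed to 0.164 to 1.49 CPM at 1, 2 and 4 dpi and to 2.23 to 2.48 CPM at 7 dpi, where Tnni3 had 0.378, 0.185 and 0.226 CPM and Mybpc3 0.81, 1.69 and 0.254 CPM, and their part in the results was not tested. Hcn4 had counts in 2 of the 7 dpi libraries. The defining cardiac genes Myl7 and Nppb had 0 counts in all 12 libraries, and Myh6 and Nppa had none at 1, 4 or 7 dpi. The 9 Schwann cell markers summed to 70.7 to 298 CPM, highest at 1 dpi, where Egr2, which macrophages also express, held 209 to 271 CPM of it. Red blood cell markers showed no call. Of the neutrophil markers 4 of the 5 tested were called lower from 1 to 7 dpi, against 14% of all genes. Of the macrophage list 1 gene (Mertk) was called higher and 1 (Itgam) lower from 2 to 4 dpi and none from 4 to 7 dpi, and its sum at 7 dpi, 10100 to 14800 CPM, overlapped that at 4 dpi.

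**Figure D5:**
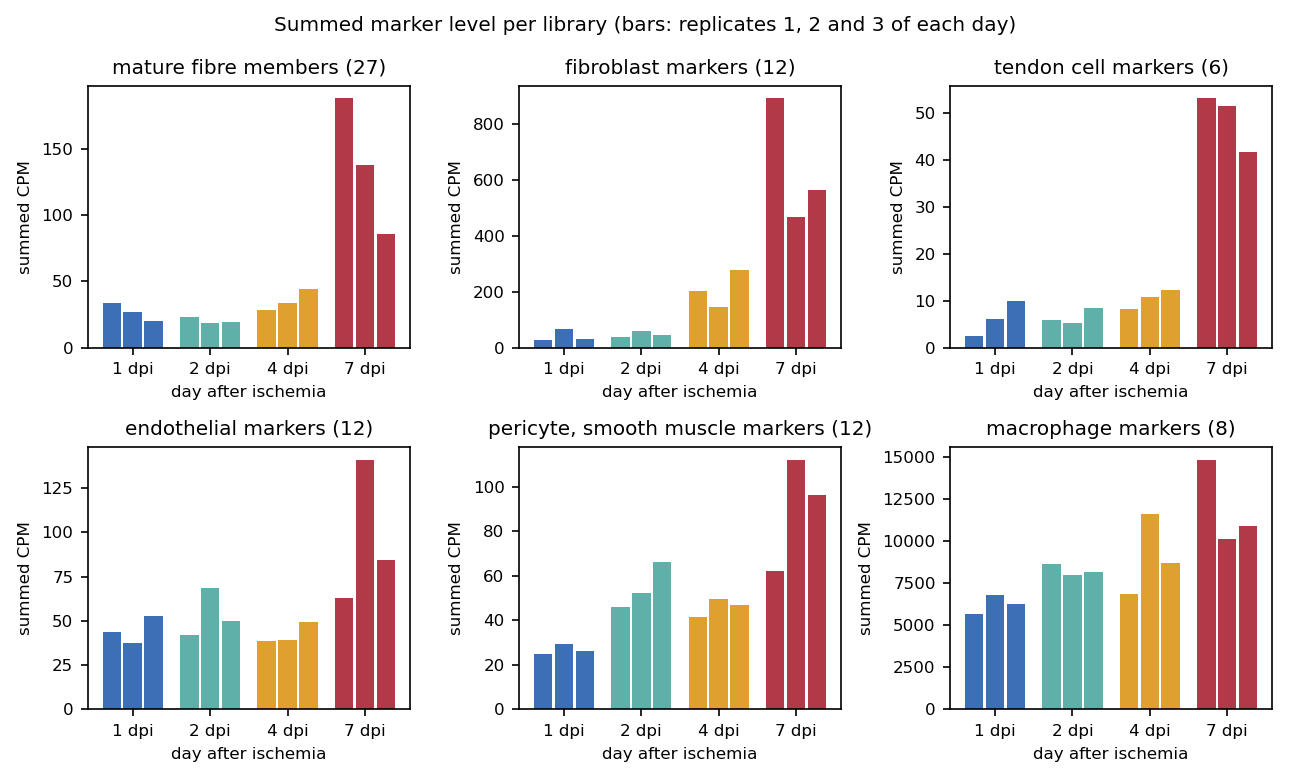
Summed CPM (y-axis, each panel on its own scale from 0) of the mature fibre members and of 5 marker lists, with a bar per library and libraries grouped by day (x-axis). Mature fibre members, fibroblast and tendon markers are all highest at 7 dpi, and macrophage markers are on a scale up to 14800 CPM.

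Small counts set the limit of these values. Of the 349 values above 0 among members and libraries, 315 (90.3%) were even numbers, so reads of a pair may have been counted one by one and fragments may be fewer than counts. A single library gives 3 counts at 0.081 to 0.236 CPM, and values at that level are close to the limit and carry no order among libraries. Whether the replicates are separate mice or pools is not given in the sources used here, so the tests rest on sample-to-sample spread that may be technical.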

How the data were processed

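RNA-seq counts of 12 libraries were used, 3 each at 1, 2, 4 and 7 dpi. Per the labels and the study's methods, libraries were made by a Smart-seq2/3 protocol, which primes at the poly(A) tail and keeps no strand, and the authors used Trim Galore 0.6.6 for trimming, HISAT2 2.2.1 for alignment to GRCm39 and featureCounts (Subread 2.0.1) for counting. The values deposited are raw counts, with no normalization. Symbols, exonic lengths and overlaps were taken by Ensembl ID from a GRCm38 annotation, and promoter windows from RefSeq (GRCm38.p6).

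In R 4.3.3 with edgeR 4.0.16, filterByExpr left 14310 genes. All 12 libraries entered a single fit on TMM-scaled counts, with day as the factor. The quasi-likelihood F test was adjusted by Benjamini-Hochberg over all genes, and the study's thresholds set the calls (FDR under 0.05 with a log2FC beyond 1 in either direction). Folds against days at 0 counts use a floor of 3 counts over the group, and counting intervals (95%, exact) cover counting error only. Total counts were 19528316 to 33599472 per library. The fit was tested on simulated counts. The members and all gene lists were chosen with earlier results of these data known. All 39 members are described, and of each other list the up to 4 called genes of smallest P per comparison. Alternatives were no filter, a stricter filter (CPM above 1 in 3 libraries), RLE factors, DESeq2 1.42.0, limma-voom (limma 3.58.1), a fit of only the 2 days in question (6 libraries), a block for the replicate number, leaving out the unnamed gene, no minimum fold, and leaving out each library in turn. CUT&Tag data of the study are not analysed here.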

Additional observations from a re-analysis of the deposited data

How the results depend on the processing

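Of 43 calls of a member in a comparison, 33 held under every alternative that tested the gene (19 to 21 alternatives a call, since filters removed some genes). Of 887 recomputed log2FC, 838 kept direction and call, 49 kept direction only and 0 reversed. The count of members higher was 6 (limma-voom) to 12 (no filter) from 2 to 4 dpi and 8 (without 1 library) to 13 (DESeq2 and limma-voom) from 4 to 7 dpi. From 1 to 7 dpi it was 17 (stricter filter, 21 members tested) to 24. Members higher from 1 to 2 dpi were 1 with no filter and 1 with DESeq2 (Actn2), and 0 to 1 with a library left out. Members lower from 1 to 2 dpi were 2 with DESeq2 and 2 in the fit of the 6 libraries (Ryr1 and Atp2a1), and 0 to 1 with a library left out. From 2 to 4 dpi the number lower was 0 to 1 with a library left out (Actn2). From 4 to 7 dpi the number lower was 0 with the stricter filter, which removed Cdh15, and 0 to 1 with a library left out.

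With the replicate number as a block the number lower from 4 to 7 dpi was 0, since Cdh15 lost its call, and Pvalb lost its call from 1 to 7 dpi. The numbers do not pair the samples: same-numbered libraries correlated at -0.133 to 0.127 in their deviations from the group means. Leaving out the unnamed gene changed no direction, and it raised each class's share of counts, for example from 0.00329% to 0.00625% for mature fibre genes at 4 dpi. Apart from replicates that were left out, the cause of these changes was not tested. Depth limits all members under about 20 counts a day.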
